A study of Gallus gallus with 54 samples.

Results

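The genes described here are the carriers of sugars and monocarboxylates of the chicken ovarian follicle. They were taken as every gene symbol of the solute carrier (SLC) families SLC2, SLC5, SLC16, SLC37 and SLC50 in the deposited tables that had a single locus, which gave 36 of 26619 genes. The SLC2 family held 10 members, SLC5 held 9, SLC16 held 13, SLC37 held 4, and no gene was listed as SLC50A1. RNA came from granulosa cells (GCs) and theca cells (TCs), the inner and outer cell layers of the follicle wall, of White Leghorn hens aged 35 to 40 weeks. No transgene, allele or other genetic change was listed for any hen. The control hens (NC) received water, the bic hens 15 mg of bicalutamide, an antagonist of the androgen receptor, and the mes hens 100 mg of mestanolone, an androgen that activates the receptor. There were 10 hens per treatment, dosing was oral over 4 days, and the follicles came from hens kept 1 further day without dosing. Follicles were taken at 3 stages. The small yellow follicle of 6 mm (syf 6 mm) has not been selected for the preovulatory hierarchy. F5 is the smallest of the hierarchy sampled, and F1, in an untreated hen, is the largest and ovulates next. The study reports that the drugs raised the number of preovulatory follicles and that those left without a label were then called F1. A treated F1 follicle may therefore not be the next to ovulate, and F1 may not be the same stage across treatments. Each of the 18 combinations of layer, stage and treatment had 3 polyA RNA-seq libraries, 54 in all.

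Facilitative carriers of the SLC2 family let hexoses, and in some members urate or inositol, cross the plasma membrane down their gradient, whereas SLC5 carriers use the sodium gradient to move glucose, inositol, vitamins or iodide against theirs. The SLC16 family includes the monocarboxylate carriers that move lactate and pyruvate together with a proton, and related members that move amino acids, creatine or carnitine. SLC37 proteins sit in the membrane of the endoplasmic reticulum, where SLC37A4 brings in glucose 6-phosphate for its phosphatase. In the bird follicle the granulosa layer has no blood vessels of its own and takes its substrates across the theca, and it synthesises progesterone before ovulation.

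Levels are given as FPKM (fragments scaled to transcript length and to the mapped fragments of the library), summed over the transcripts of a gene. Tests compared read counts, and a gene was called changed at an adjusted p of 0.05 or less (edgeR quasi-likelihood test, Benjamini-Hochberg over all genes tested) together with a group mean of 1 FPKM or more in either group compared. The libraries held between 33310408 and 64933667 counts in total (median 46846094). Libraries that shared a library number and came close to sampling noise were averaged as 1 sample (chi-square per degree of freedom over 4 of 1.17 to 1.45, where sampling noise alone gives 1 and other pairs within groups gave 2.77 to 15.63): replicates 1 and 2 of NC GC F1 and of bic TC F1, and replicates 1, 2 and 3 of bic GC F1, which left 50 samples. For the bic GC F1 group this means n = 1. The study describes tissues from hens in 3 biological replicates, an account from which this averaging of libraries departs. Nothing in the labels ties the other replicates to separate hens, so the p-values measure the spread between these samples.

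Some libraries held marker RNA of the other layer. The 10 theca markers summed to between 9.53 and 147 FPKM in NC GCs, apart from syf 6 mm replicates 1 and 3, which held 2610 and 2140 FPKM against 9357 to 12351 FPKM in NC TCs. The 6 granulosa markers summed to 3752 FPKM in NC TC F5 replicate 3, 2175 in replicate 2, 7507 in NC TC F1 replicate 1 and 3732 in bic TC F5 replicate 1. The other TC libraries held 350 to 1689 FPKM. ZP3 made up most of each high sum, at 2721, 1553, 6743 and 2624 FPKM in the same order. In NC GCs ZP3 was 1577 to 2049 FPKM at syf 6 mm and 11326 to 14795 at F1, so the sums depend on stage. In NC TC F1 replicate 1, AMH (8.55 FPKM against 9.97 and 7.27) and FSHR (5.19 against 5.96 and 4.45) lay between the other replicates. FSHR was higher in NC TC F5 replicate 3 (14.6 FPKM against 6.20 and 8.58). AMH at F1 was lower in NC GCs (0.188 to 0.697 FPKM). The bic GC F5 replicate 2 held 10822 FPKM of theca markers and ranked its genes more like NC TC at syf 6 mm (mean Spearman correlation 0.913) than like its own group (0.724). The bic GC syf 6 mm replicate 2 was closer to bic GC F1 (0.885) than to its own group (0.805) and held 68.3 FPKM of the 5 measured blood markers, against 0.579 FPKM in the lowest library of that group. Oocyte markers summed to 24.6 to 139 FPKM in NC GCs at syf 6 mm and to no more than 2.30 FPKM at F5 and F1.

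The layers shared several leading transporters and differed in their levels. In NC GCs the 36 members summed to 434 ± 127 FPKM (SD, n = 3) at syf 6 mm, 1205 ± 149 at F5 (n = 3) and 1346 ± 283 at F1 (n = 2). In NC TCs they summed to 291 ± 6.38, 499 ± 183 and 406 ± 193 FPKM (n = 3 each). SLC5A6, the sodium-dependent carrier of biotin and pantothenate, was the most abundant member in NC GCs at every stage and made up 33.3%, 40.3% and 42.6% of the sum. SLC16A1 (MCT1), the widespread lactate and pyruvate carrier, led in NC TCs at syf 6 mm with 23.3% of the sum. At F5 in NC TCs the mean shares of SLC16A1 (22.4%) and SLC5A6 (22.4%) were level, and at F1 SLC5A6 took 16.7% against 11.1% for SLC2A1. That lead at F1 rested on replicate 1, the library with 7507 FPKM of granulosa markers. In replicates 2 and 3 SLC2A1 was above SLC5A6.

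Of the 36 members, 17 reached a mean of 10 FPKM in at least 1 group and 12 others reached between 1 and 10. The remaining 7 (SLC2A2, SLC5A7, SLC5A8, SLC5A9, SLC16A8, SLC16A13 and SLC16A14) stayed below a mean of 1 FPKM in every group. SLC2A2, the glucose carrier of liver and pancreatic islets, had no library above 0.326 FPKM. SLC16A3 (MCT4), the lactate exporter of glycolytic tissue, was at most 1.64 FPKM in every GC library and 1.66 FPKM in every TC library apart from the bic syf 6 mm replicate 2 of each layer (193 and 10.7 FPKM). SLC16A7 (MCT2), a high-affinity pyruvate and lactate carrier, ranged from 0.0682 to 1.42 FPKM over GC samples and from 0.813 to 5.06 over TC samples. Only SLC16A1 among these lactate carriers was abundant in both layers of the NC follicles.

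**Figure D1:**
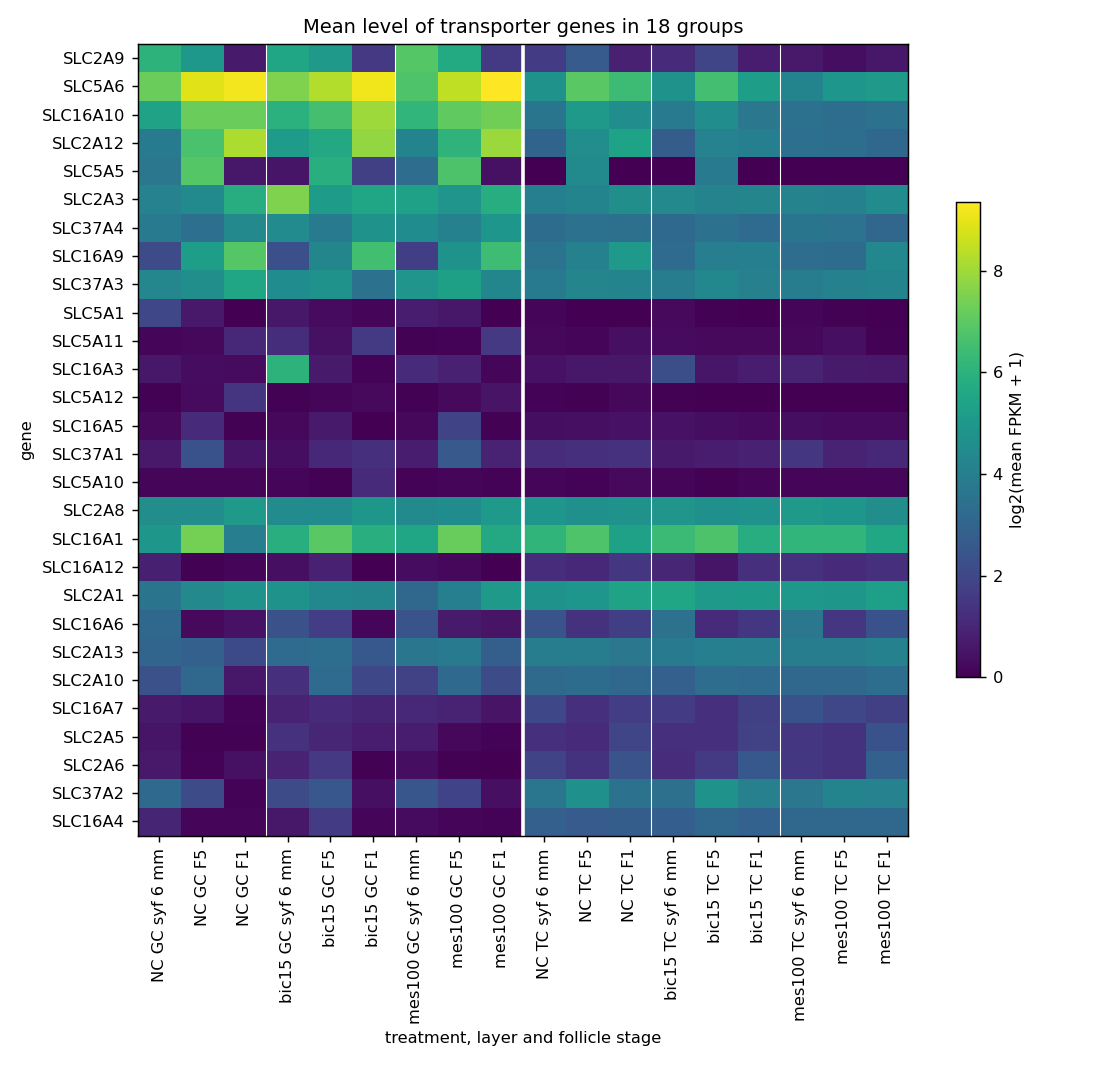
Colour shows log2(mean FPKM + 1) of 28 members with a highest mean of 1 FPKM or more, in the 18 groups of layer, treatment and stage, ordered from those higher in GCs to those higher in TCs. SLC5A6, SLC2A12, SLC16A9 and SLC16A10 are highest in GCs, SLC16A4 and SLC37A2 in TCs, and SLC5A5 is high in GCs at F5, with a mean of 116 FPKM in NC.

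The vitamin carrier SLC5A6 (chromosome 3, 104960935 to 104965508, minus strand, in the annotation of Gallus_gallus-5.0) stood at 112, 210 and 118 FPKM in NC GCs at syf 6 mm and at 509, 516 and 421 FPKM at F5. Every F5 library was above every syf 6 mm library, and the gene rose 4.12-fold (log2 fold change 2.04 ± 0.33 SE, adjusted p = 0.0231). At F1 the samples held 435 and 729 FPKM, which overlapped those of F5 (log2 fold change 0.73 ± 0.28, adjusted p = 0.0943). In TCs the levels were 21.6, 34.3 and 23.1 FPKM at syf 6 mm and 42.8, 112 and 213 at F5. At F1 the TC libraries held 192, 31.2 and 26.1 FPKM. The high TC values of F5 replicates 2 and 3 and of F1 replicate 1 came from libraries with 2175, 3752 and 7507 FPKM of granulosa markers, whose part in them was not tested.

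**Figure D2:**
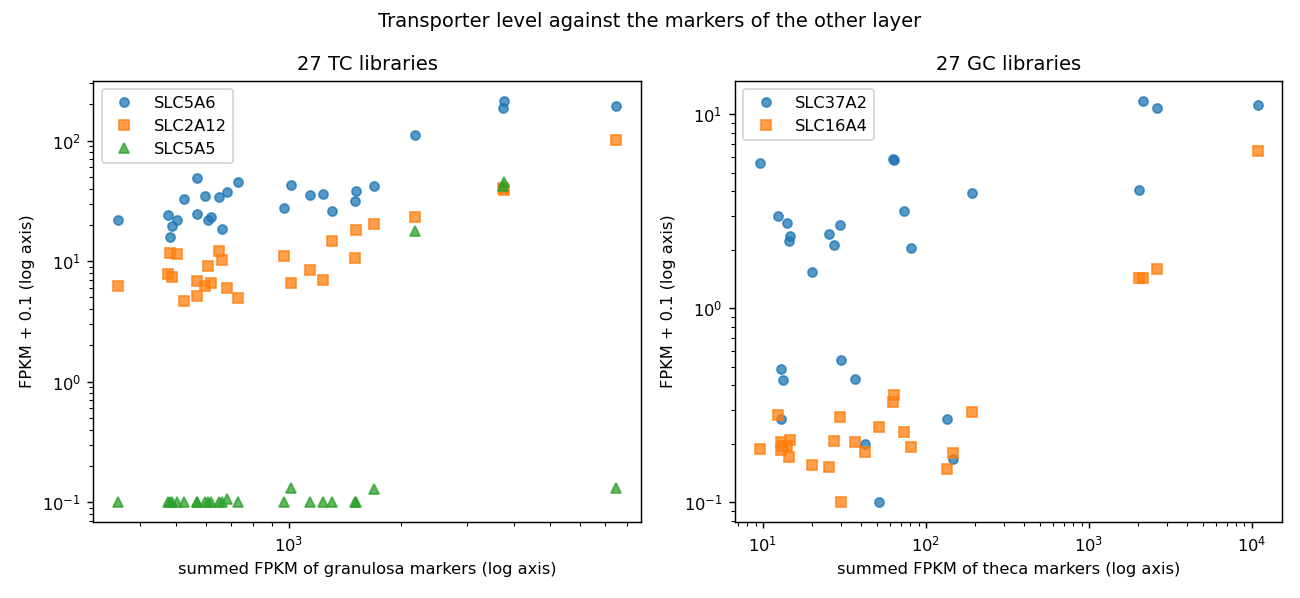
Each point is 1 library, with the summed FPKM of the other layer's markers on the x axis and FPKM + 0.1 of a member on the y axis (both log axes), for SLC5A6, SLC2A12 and SLC5A5 against granulosa markers in the 27 TC libraries (left) and SLC37A2 and SLC16A4 against theca markers in the 27 GC libraries (right). The 4 TC libraries with 2175 to 7507 FPKM of granulosa markers hold 112 to 213 FPKM of SLC5A6.

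The glucose carriers differed in their course. SLC2A12 (chromosome 3, 56395777 to 56426270), a facilitative glucose carrier, stood in NC GCs at 15.1, 11.4 and 13.3 FPKM at syf 6 mm, at 77.2, 118 and 110 at F5, and at 260 and 327 at F1. The 3 stages did not overlap, and both steps passed the test (log2 fold change 3.27 ± 0.27, adjusted p = 0.00613, then 2.00 ± 0.27, adjusted p = 0.00454). SLC2A1 (GLUT1, chromosome 21, 6472306 to 6486838), the widespread basal glucose carrier, rose from 11.5, 10.2 and 12.1 FPKM at syf 6 mm to 23.5, 19.5 and 17.8 at F5 (2.26-fold, log2 fold change 1.18 ± 0.18, adjusted p = 0.0207). At F1 it was at 22.1 and 31.6 FPKM, a further log2 change of 0.87 ± 0.25 that was called (adjusted p = 0.0400) although the FPKM values of the 2 stages overlapped. SLC2A3 (GLUT3), a high-affinity glucose carrier, overlapped between syf 6 mm (8.82, 25.6 and 15.99 FPKM) and F5 (12.6, 28.2 and 23.4) and rose 3.64-fold at F1 (57.0 and 55.4 FPKM, log2 fold change 1.86 ± 0.36, adjusted p = 0.0127). SLC2A8, which sits in internal membranes, was at 22.4 to 23.5 FPKM at F5 and 29.4 and 34.7 at F1 (log2 fold change 0.94 ± 0.19, adjusted p = 0.0161). The tests scaled counts between libraries (TMM factors), which FPKM values are not. From F5 to F1 mean SLC2A8 went from 23.1 to 32.1 FPKM against a tested 1.91-fold, and SLC2A1 from 20.3 to 26.9 against 1.83-fold. SLC16A10 went from 147 to 146 FPKM with a log2 fold change of 0.45. The part of this scaling in the calls was not tested.

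SLC2A9 (chromosome 4, 78950703 to 79037667), known in mammals as a urate carrier, took the opposite course in GCs. It held 48.8, 80.9 and 67.3 FPKM at syf 6 mm, 27.3, 28.4 and 36.2 at F5, and 0.272 and 0.942 at F1. The stages did not overlap at either step, and the step from F5 to F1 was a fall called by the test (log2 fold change -5.21 ± 0.63, adjusted p = 0.00338), whereas the first step was not called (log2 fold change -0.77 ± 0.25, adjusted p = 0.0897). SLC2A10, a facilitative carrier of the same family, fell 9.96-fold from F5 to F1 (7.84, 8.52 and 7.63 FPKM to 0.362 and 0.690, log2 fold change -3.32 ± 0.36, adjusted p = 0.00269).

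SLC5A5 (chromosome 28, 3347557 to 3352534), the sodium iodide symporter best known from the thyroid, was highest in GCs of F5 follicles. In NC GCs it stood at 1.51, 33.2 and 1.66 FPKM at syf 6 mm, at 134, 126 and 88.7 at F5, and at 0.670 and 0.385 at F1. All F5 libraries lay above all others of the layer, and the fall to F1 was 154-fold (log2 fold change -7.27 ± 0.48, adjusted p = 0.00102). The step from syf 6 mm to F5 was not called (log2 fold change 3.59 ± 1.26, adjusted p = 0.112), with replicate 2 of syf 6 mm well above the other libraries of its group. Those other libraries, replicates 1 and 3, held 2610 and 2140 FPKM of theca markers. Without them, which left 1 sample at syf 6 mm, the log2 fold change was 2.08. Over TCs the gene was at or near 0 in every library except NC F5 replicates 2 and 3 (17.8 and 45.0 FPKM) and bic F5 replicate 1 (41.8 FPKM), the same 3 F5 libraries in which granulosa markers were high.

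**Figure D3:**
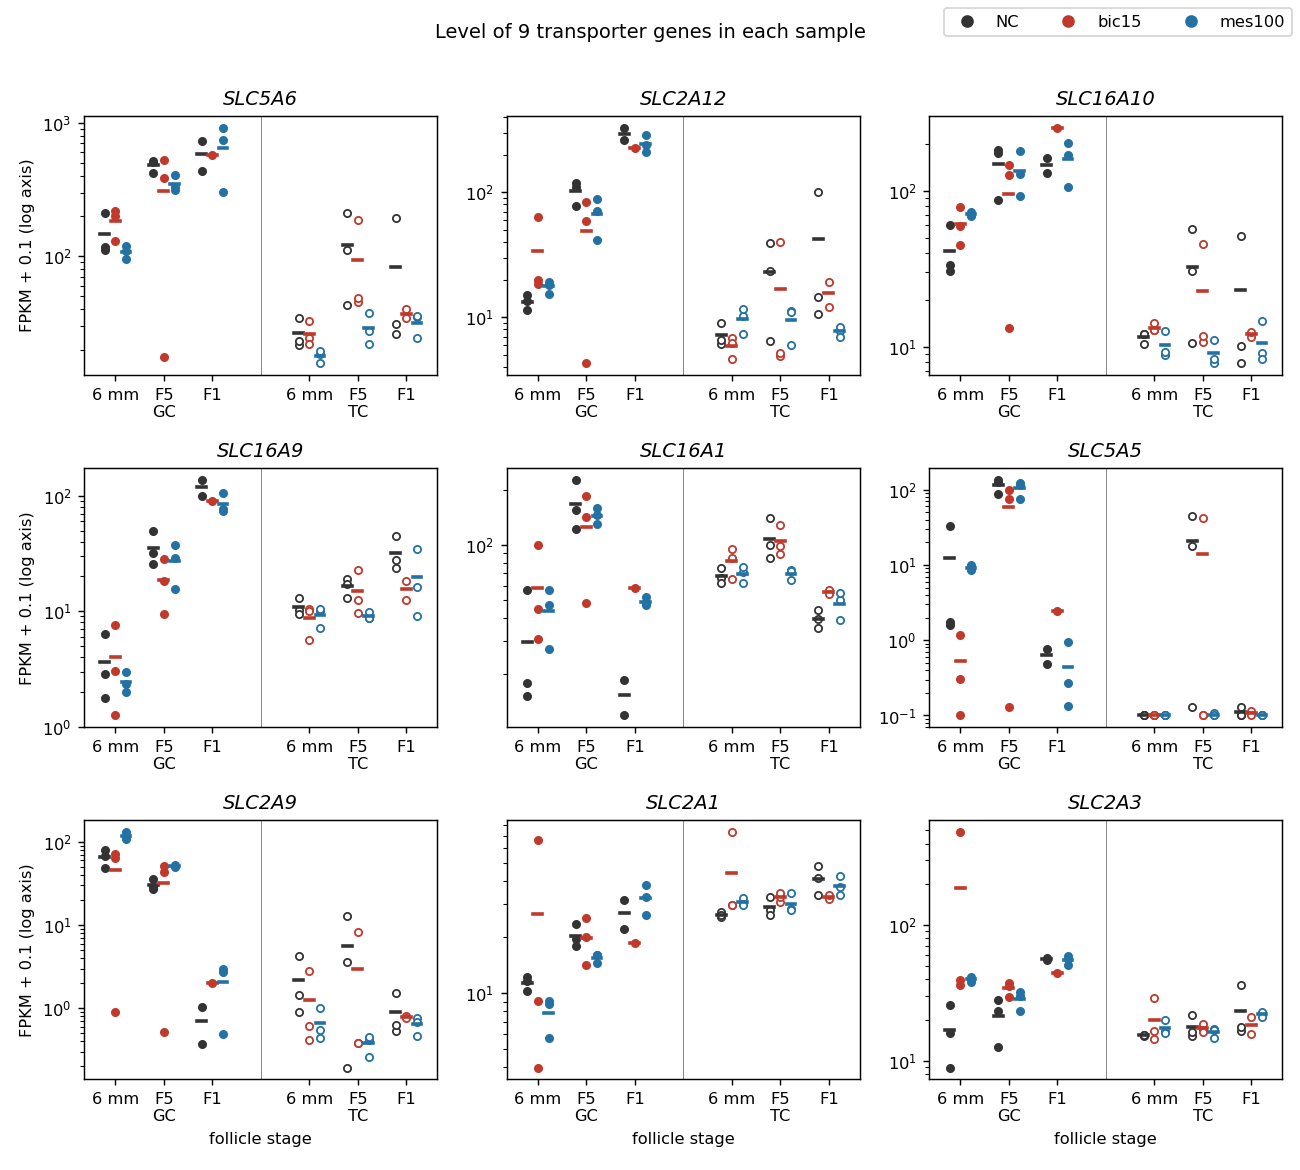
FPKM + 0.1 (log axis) of 9 members in each sample at syf 6 mm, F5 and F1, with GCs as filled points in the left of each panel and TCs as open points in the right, NC in black, bic in red and mes in blue, and short bars for group means. In NC, SLC2A12 climbs at each stage in GCs (11.4 to 327 FPKM), SLC2A9 falls (80.9 to 0.272 FPKM), and SLC5A5 and SLC16A1 are highest at F5.

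The monocarboxylate carrier SLC16A1 (chromosome 26, 3611036 to 3625979) peaked at F5. In NC GCs it held 17.7, 56.6 and 15.0 FPKM at syf 6 mm, 122, 225 and 154 at F5, and 11.8 and 18.5 at F1. The F5 libraries overlapped neither neighbour, with a 7.00-fold rise (log2 fold change 2.81 ± 0.60, adjusted p = 0.0400) and a 7.98-fold fall (SE 0.39 on the log2 scale, adjusted p = 0.00431). In NC TCs the levels were 75.2, 65.8 and 62.3 FPKM, then 84.3, 100 and 140, then 39.4, 44.1 and 35.3. The TC fall from F5 to F1 was 2.52-fold (log2 fold change -1.33 ± 0.23, adjusted p = 0.0300), and the change differed between the layers by 1.62 ± 0.44 on the log2 scale (adjusted p = 0.0295).

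Related SLC16 members rose in GCs. SLC16A9 (chromosome 6, 9162139 to 9184432), linked to carnitine and creatine transport in human, stood in NC GCs at 1.67, 2.75 and 6.23 FPKM, then 25.6, 49.0 and 32.0, then 137 and 99.9. The stages did not overlap and both steps passed the test (log2 fold change 3.65 ± 0.50, adjusted p = 0.0175, and 2.20 ± 0.34, adjusted p = 0.00682). SLC16A10 (chromosome 3, 66373161 to 66439597), a carrier of aromatic amino acids, was at 30.5, 59.8 and 33.1 FPKM at syf 6 mm and at 87.0, 174 and 181 at F5, again without overlap (log2 fold change 2.17 ± 0.43, adjusted p = 0.0332). Its F1 samples, 130 and 161 FPKM, lay within the range of F5. SLC16A5, at 0.178 ± 0.119, 1.14 ± 0.30 and 0.0517 ± 0.0119 FPKM (mean ± SD) over the stages, was a low member with the same peak at F5 (log2 fold change 2.93 ± 0.69, adjusted p = 0.0472, and -4.03 ± 0.72, adjusted p = 0.0104).

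SLC16A6, a ketone body carrier in zebrafish, fell in GCs between syf 6 mm and F5. It held 2.49, 4.12 and 17.3 FPKM and then 0.375, 0.105 and 0.0822, without overlap (log2 fold change -4.94 ± 0.98, adjusted p = 0.0340). Without syf 6 mm replicates 1 and 3, the libraries with 2610 and 2140 FPKM of theca markers, the log2 fold change was -4.19 ± 0.93 (adjusted p = 0.184). In bulk RNA, fewer cells of a type and less RNA of a gene per cell cannot be told apart.

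The SLC37 family split. SLC37A1, a sugar phosphate exchanger, rose at F5 and fell again at F1 in GCs (0.490, 0.737 and 0.446 FPKM, then 2.44, 4.91 and 5.00, then 0.332 and 0.545). Neither step overlapped (log2 fold change 2.94 ± 0.29, adjusted p = 0.0105, and -2.89 ± 0.36, adjusted p = 0.00387). SLC37A2, a related exchanger, fell at F1 to 0.117 and 0 FPKM from 5.48, 2.12 and 2.89 (log2 fold change -5.13 ± 1.38, adjusted p = 0.0348), and SLC37A3 rose from 22.1, 24.5 and 24.6 to 36.1 and 54.7 FPKM (1.32 ± 0.24, adjusted p = 0.0107). SLC37A4, the glucose 6-phosphate carrier, was at 9.25, 17.4 and 12.2 FPKM at syf 6 mm and 16.7 and 23.6 at F1. At F5 its replicate 1 held 0.772 FPKM against 14.1 and 14.0 in the other libraries, and neither step was called.

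Taking the GC steps whole, 10 of 33 members tested were called between syf 6 mm and F5, 8 higher and 2 lower, against 9.11% of all genes tested (4.42% higher and 4.69% lower). The members' median log2 fold change was 0.30 against -0.02 over all genes. This count moved with single libraries: it was 3 without syf 6 mm replicate 1, 3 without replicate 3, 5 without F5 replicate 1, 1 without F5 replicate 2, 0 without F5 replicate 3 and 13 (against 13.6% of all genes) without syf 6 mm replicate 2. Where a count without 1 library has no share of all genes beside it, here or below, its move cannot be read as particular to the members. With both syf 6 mm libraries that held theca RNA left out, which left 1 sample assumed to vary like F5, 0 members and 0% of all genes were called (edgeR), with 13 members at an unadjusted p of 0.05 or less. In that fit the log2 fold change was 3.40 ± 0.44 for SLC2A12, 3.94 ± 0.56 for SLC16A9, 2.83 ± 0.43 for SLC37A1, 2.11 ± 0.78 for SLC16A5, 1.81 ± 0.48 for SLC16A1, 1.55 ± 0.55 for SLC16A10, 1.45 ± 0.33 for SLC5A6 and 1.24 ± 0.32 for SLC2A1. Between F5 and F1, 15 of 32 members were called, 8 higher and 7 lower, against 29.6% of all genes (14.0% higher and 15.5% lower), with a median of 0.52 against -0.15. Among those higher were 2 sodium-coupled carriers of low level, SLC5A11, an inositol carrier (0.143 ± 0.043 to 1.13 ± 0.36 FPKM, log2 fold change 3.07 ± 0.59, adjusted p = 0.0129), and SLC5A12, a low-affinity lactate carrier (0.222 ± 0.099 to 1.74 ± 0.06 FPKM, 3.41 ± 0.58, adjusted p = 0.00885). Under each of 11 other fits, SLC2A9, SLC2A10, SLC5A5, SLC16A1, SLC16A5, SLC16A9 and SLC37A1 kept their call.

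The same GC steps were measured in the mes hens. Between syf 6 mm and F5, 15 of 30 members were called in mes GCs against 24.6% of all genes, and between F5 and F1, 14 of 29 against 18.2%. SLC2A12 rose by 2.17 ± 0.29 and 2.16 ± 0.37 on the log2 scale, SLC16A9 by 3.73 ± 0.37 and 1.94 ± 0.39, and SLC16A1 rose by 1.96 ± 0.27 and then fell by 1.28. SLC5A5 was at 9.96, 8.66 and 8.54 FPKM at syf 6 mm, 116, 122 and 76.0 at F5 and 0.0328, 0.169 and 0.837 at F1, so that no stage overlapped another, and both steps were called in mes (log2 fold change 3.74 ± 0.21, adjusted p = 0.000400, and -7.91 ± 1.14, adjusted p = 0.0114). SLC2A9 was also called at both steps (-0.97 ± 0.12, adjusted p = 0.00310, and -4.47 ± 0.72, adjusted p = 0.0148). SLC37A3 (log2 fold change -0.78 ± 0.27) and SLC2A10 (-0.93 ± 0.46) were not called between F5 and F1 in mes. The count of 14 fell to 2 without mes F5 replicate 1 and to 0 without mes F5 replicate 2, where 2.39% and 0.973% of all genes were called. In bic GCs, where 1 library of syf 6 mm and 1 of F5 stood apart and F1 was 1 sample, 0 members were called at either step (edgeR) and 0% of all genes, with 4 and 2 members at an unadjusted p of 0.05 or less. DESeq2 called 1 member at the first step (0.866% of all genes) and 0 at the second (6.89%). With both bic libraries that stood apart left out, an alternative chosen after seeing the data, 7 of 31 members were called between syf 6 mm and F5 against 11.4% of all genes. They were SLC16A6 (log2 fold change -5.39 ± 0.38), SLC37A3 (1.21 ± 0.22), SLC16A10 (1.63 ± 0.21), SLC2A12 (2.13 ± 0.25), SLC16A1 (2.36 ± 0.26), SLC16A9 (3.75 ± 0.55) and SLC5A5 (7.34 ± 0.89). Between F5 and F1 the same alternative called 2 of 32 against 7.36% of all genes, SLC5A5 (-4.99 ± 0.35) and SLC2A9 (-4.44 ± 0.21).

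**Figure D4:**
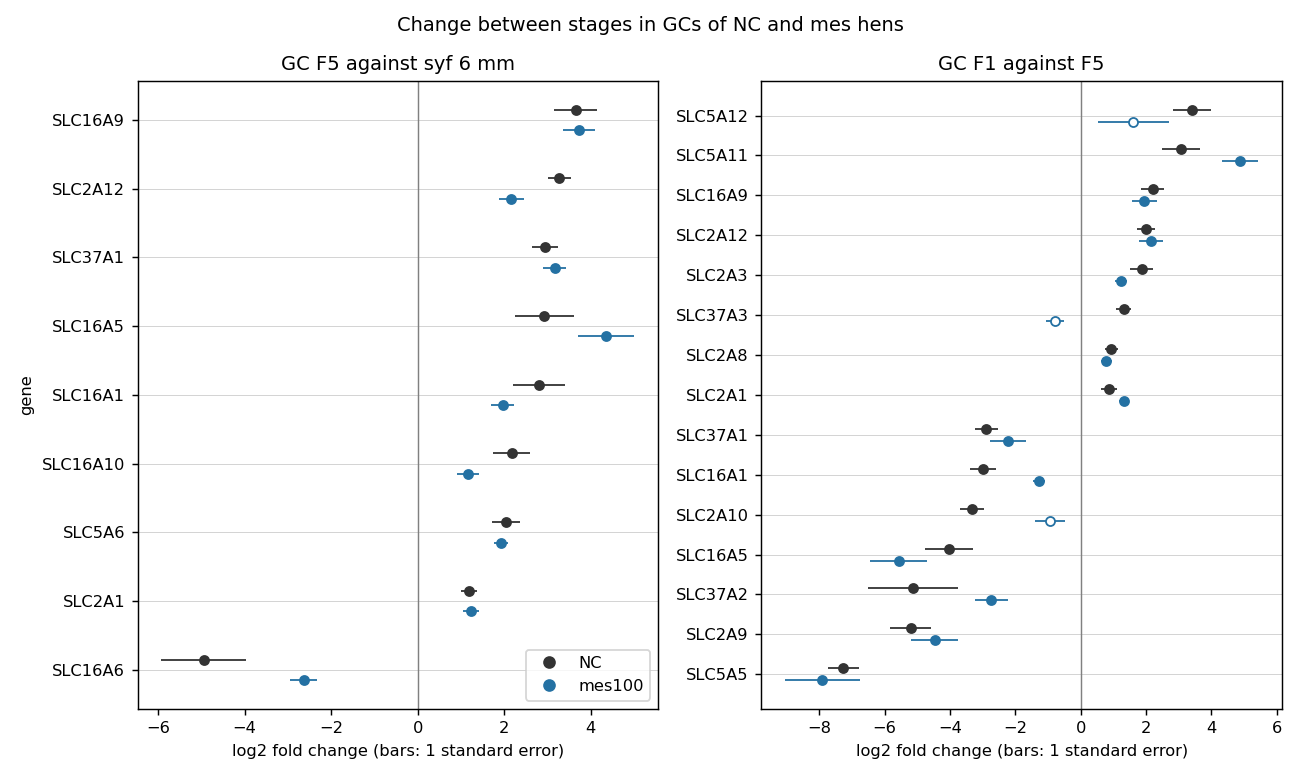
Log2 fold change of members in GCs between syf 6 mm and F5 and between F5 and F1, with standard errors, for NC and mes. Filled points were called and open points were not; SLC5A5, SLC2A9 and SLC37A1 fall between F5 and F1 in both treatments, while SLC37A3 is at 1.32 in NC and -0.78 in mes, a difference that was not tested.

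Fewer members were called over the stages in TCs. Between syf 6 mm and F5, 0 of 29 members were called in NC TCs (edgeR) against 7.63% of all genes, 12 had an unadjusted p of 0.05 or less, and DESeq2 called 9 (24.0% of all genes). SLC5A6 gave a log2 fold change of 2.37 ± 0.56 (adjusted p = 0.0511), and SLC37A2 went from 8.38, 12.7 and 13.8 FPKM to 19.5, 40.2 and 15.4 (1.25 ± 0.38, adjusted p = 0.0781). Without NC TC F5 replicate 1, 9 of 31 members were called against 19.2% of all genes. That fit kept at F5 only replicates 2 and 3, with 2175 and 3752 FPKM of granulosa markers, whose part in these calls was not tested. Between F5 and F1, 1 of 27 members was called against 6.20% of all genes, and it was SLC16A1; DESeq2 called 6 (16.9% of all genes). That call was lost without F1 replicate 2, F1 replicate 3, F5 replicate 2 or F5 replicate 3. It was also lost without both F5 replicate 3 and F1 replicate 1, the libraries richest in granulosa-marker RNA (log2 fold change -1.14 ± 0.19, adjusted p = 0.0881). F5 replicate 2, with 2175 FPKM of granulosa markers, stayed in that fit. SLC2A1 in TCs went from 27.9, 32.6 and 26.2 FPKM at F5 to 48.3, 41.5 and 33.7 at F1, without overlap but not called (0.63 ± 0.19, adjusted p = 0.110). SLC2A13, the proton-coupled inositol carrier, was at 13.3 to 15.1 FPKM over the 6 NC TC libraries of syf 6 mm and F5 and 11.4 to 13.1 at F1.

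In TCs of the treated hens, mes gave 0 of 30 members between syf 6 mm and F5 (edgeR, against 0.0708% of all genes), 3 at an unadjusted p of 0.05 or less and 2 by DESeq2 (2.95%). Between F5 and F1 in mes TCs, 4 of 29 members were called, all higher, against 15.1% of all genes. SLC2A5, a fructose carrier in mammals, was at 1.60, 1.58 and 1.49 FPKM at F5 and at 3.91, 4.73 and 3.59 at F1 without overlap (log2 fold change 1.46 ± 0.19, adjusted p = 0.00787), a call kept in each of 11 other fits. SLC2A6, a lysosomal member of the glucose carrier family, went from 1.35, 2.17 and 1.30 to 7.02, 7.69 and 3.96 FPKM (2.05 ± 0.35, adjusted p = 0.0129). SLC16A6 (1.31 ± 0.27, adjusted p = 0.0226) and SLC2A3 (0.53 ± 0.11, adjusted p = 0.0242) rose as well. From F5 to F1 the summed blood markers of mes TCs went from between 71.6 and 89.9 FPKM to between 168 and 321, leukocyte markers from between 424 and 533 to between 841 and 1388, and endothelial markers from between 90.2 and 148 to between 196 and 304, and their part in these changes was not tested. The count was 1 without mes TC F1 replicate 1 and 2 without F1 replicate 2 or F5 replicate 3.

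In bic TCs, 2 of 30 members were called between syf 6 mm and F5 against 12.8% of all genes. Among them SLC37A2 rose from 9.92, 6.63 and 13.4 to 16.3, 31.3 and 33.4 FPKM (log2 fold change 1.53 ± 0.34, adjusted p = 0.0341). The stages did not overlap. No member was called without any 1 of bic TC syf 6 mm replicate 1 or 3 or F5 replicate 2 or 3, only 1 was without syf 6 mm replicate 2, and 3 were without F5 replicate 1. Between F5 and F1, 0 of 28 were called in bic TCs (edgeR, against 2.34% of all genes), 6 had an unadjusted p of 0.05 or less, and DESeq2 called 4 (19.8%).

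Between the layers members differed in both directions, and SLC16A9 and SLC37A1 changed side from one stage to another. At syf 6 mm, 12 of 32 members were called in NC, 5 higher in TCs and 7 higher in GCs, against 27.0% of all genes (11.0% and 16%). SLC5A5 was at 0 in all 3 TC libraries and therefore at least 411-fold lower there (by a floor of 3 counts per library), a limit that was 55.4-fold without GC replicate 2. Also higher in GCs were SLC2A9 (1.36, 0.789 and 4.13 FPKM in TCs, log2 difference TC minus GC -4.95 ± 0.70, adjusted p = 0.00626), SLC5A1 (SGLT1), the sodium-coupled glucose carrier of intestine and kidney (3.21, 3.39 and 2.43 FPKM in GCs against 0.110, 0.0720 and 0.177 in TCs, -4.54 ± 0.52, adjusted p = 0.00368), and SLC5A6 (-2.46 ± 0.32, adjusted p = 0.00524). SLC2A9, SLC5A1 and SLC5A6 kept their call under each of 12 other fits. SLC16A10 (-1.83 ± 0.29, adjusted p = 0.00827), SLC2A12 (-0.88 ± 0.23, adjusted p = 0.0333) and SLC37A3 (-0.49 ± 0.15, adjusted p = 0.0487) were also lower in TCs.

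Higher in TCs at syf 6 mm was SLC2A1, at 25.6, 27.3 and 26.1 FPKM (log2 difference 1.24 ± 0.14, adjusted p = 0.00356). The lowest TC library lay above the highest GC library, at 12.1 FPKM. SLC16A7 (2.06 ± 0.37, adjusted p = 0.0118), SLC2A5 (1.75 ± 0.46, adjusted p = 0.0345), SLC16A9 (1.60 ± 0.44, adjusted p = 0.0405) and SLC2A13 (1.00 ± 0.18, adjusted p = 0.0126) were also higher in TCs. The count fell to 5, 4 and 4 without TC replicates 1, 2 and 3, where the share of all genes is not given. SLC16A4, an orphan member of the family, was not called at this stage (2.69 ± 0.92), and with the GC libraries that held theca RNA left out it was (6.05 ± 0.41, adjusted p = 0.00106).

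At F5, 15 of 31 members were called in NC, 9 higher in TCs and 6 lower, against 36.0% of all genes (20.1% higher and 15.9% lower). Several of the members higher in TCs were low in GCs. SLC16A4 stood at 5.99, 6.23 and 3.83 FPKM in TCs against 0.0702 to 0.182 in GCs (log2 difference 5.45 ± 0.52, adjusted p = 0.000535). SLC2A6, SLC2A5 and SLC16A12, a creatine carrier in mammals, differed by 4.66 ± 0.79, 4.65 ± 1.12 and 4.27 ± 0.43. SLC37A2 was 6.91-fold (2.79 ± 0.51, adjusted p = 0.00611), SLC16A6 7.81-fold (2.97 ± 0.77, adjusted p = 0.0218), SLC2A13 2.26-fold (1.18 ± 0.24, adjusted p = 0.00940) and SLC16A7 2.39-fold (1.25 ± 0.40, adjusted p = 0.0451) higher in TCs. Lower in TCs were SLC16A10 (-2.21 ± 0.63), SLC2A12 (-2.17 ± 0.62), SLC5A6 (-2.01 ± 0.55), SLC16A5 (-1.86 ± 0.48), SLC37A1 (-1.73 ± 0.33) and SLC16A9 (-1.15 ± 0.29). With the TC library richest in granulosa-marker RNA left out, SLC5A6 differed by -2.66 ± 0.50, SLC2A12 by -2.79 ± 0.63 and SLC16A10 by -2.87 ± 0.63. The count was 9 without GC F5 replicate 2, 9 without GC F5 replicate 3 and 8 without TC F5 replicate 2, where the share of all genes is not given.

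At F1, 16 of 30 members were called in NC, 12 higher in TCs and 4 lower, against 37% of all genes (21.1% higher and 15.9% lower), and the median over all genes was 0.19. SLC37A2 held 4.59, 16.2 and 10.5 FPKM in TCs against 0.117 and 0 in GCs (log2 difference 6.65 ± 1.40, adjusted p = 0.0206). SLC2A5 (5.39 ± 1.39), SLC16A4 (5.30 ± 0.54), SLC16A7 (3.73 ± 0.49), SLC16A12 (3.70 ± 0.90), SLC2A10 (3.38 ± 0.38), SLC2A6 (3.13 ± 0.95) and SLC16A6 (2.08 ± 0.54) were also higher in TCs, as were SLC2A13 (1.46 ± 0.20), SLC37A1 (1.34 ± 0.38) and SLC16A1 (1.01 ± 0.24). Lower in TCs were SLC16A9 (-2.28 ± 0.39, adjusted p = 0.0136), SLC37A3 (-1.74 ± 0.26, adjusted p = 0.0109), SLC2A3 (-1.64 ± 0.43, adjusted p = 0.0336) and SLC37A4 (-1.41 ± 0.34, adjusted p = 0.0273). The differences of SLC5A6 (-3.14 ± 1.04), SLC2A12 (-3.15 ± 1.11) and SLC16A10 (-3.01 ± 0.95) were not called with all libraries and were called at -4.86 ± 0.39, -5.07 ± 0.31 and -4.55 ± 0.28 without TC F1 replicate 1, the library with 7507 FPKM of granulosa markers. The count was 19 without that library, against 38.5% of all genes. It was 10 without GC F1 replicate 3, and 7 without TC F1 replicate 2 or replicate 3, where the share is not given.

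**Figure D5:**
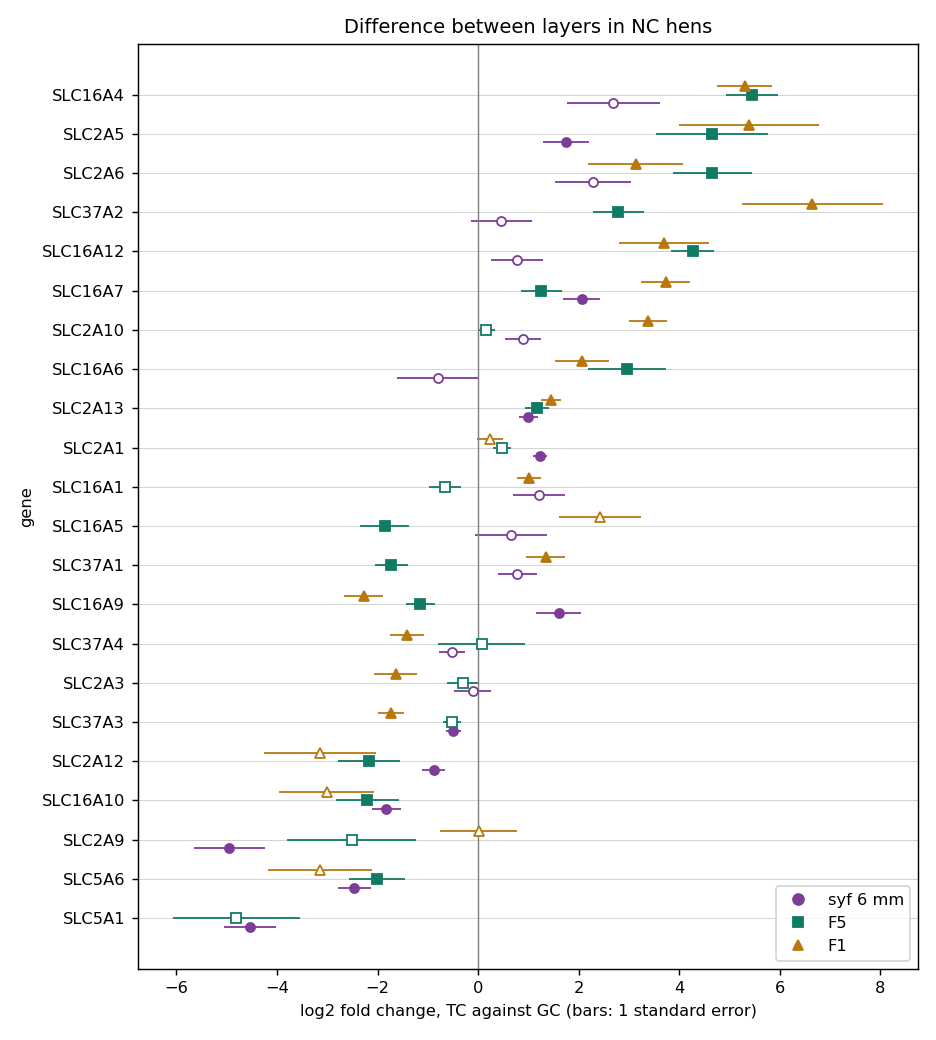
Log2 fold change, TC against GC, of members in NC at syf 6 mm, F5 and F1, with standard errors; filled points were called and open points were not. SLC16A4 is at 5.45 at F5 and at 5.30 at F1, and SLC5A6, SLC2A12 and SLC16A10 lie below 0 at each stage, while SLC5A5 is not drawn.

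In mes hens 23 of 31 members were called between the layers at syf 6 mm, 15 higher in TCs and 8 lower, against 47.1% of all genes. At F5 there were 21 of 31, 9 higher and 12 lower, against 46.8%, and at F1 16 of 30, 8 each way, against 37.6%. SLC5A5 was at 0 in all 3 mes TC libraries of syf 6 mm and at least 362-fold lower there than in GCs. SLC2A9 differed by -7.62 ± 0.46 on the log2 scale (adjusted p = 4.99e-05), a mean of 0.566 FPKM in TCs against 118.5 in GCs. SLC5A6 differed at the 3 stages by -2.53 ± 0.15, -3.67 ± 0.26 and -4.53 ± 0.53, SLC2A12 by -0.79 ± 0.20, -2.92 ± 0.39 and -5.15 ± 0.27, and SLC16A10 by -2.72 ± 0.16, -3.97 ± 0.33 and -4.01 ± 0.35, all called. SLC16A4 was higher in TCs at each stage (5.20 ± 0.34, 6.00 ± 0.30 and 6.66 ± 1.01), and SLC2A1 at syf 6 mm and F5 (2.07 ± 0.19 and 0.90 ± 0.14). SLC16A1 was higher in mes TCs at syf 6 mm (0.75 ± 0.26, adjusted p = 0.0470) and lower at F5 (-1.11 ± 0.16, adjusted p = 0.00142), with 64.4, 72.9 and 72.4 FPKM in TCs against 129, 158 and 146 in GCs.

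In bic hens 3 of 30 members were called between the layers at syf 6 mm, all lower in TCs, against 2.65% of all genes. They were SLC5A6 (24.3, 22.03 and 32.4 FPKM in TCs, 130, 218 and 202 in GCs, log2 fold change -2.88 ± 0.35, adjusted p = 0.0389), SLC16A10 (-2.28 ± 0.37, adjusted p = 0.0470) and SLC37A4 (-1.43 ± 0.21, adjusted p = 0.0423). The count was 11 of 31 (against 22.1% of all genes) without GC replicate 2, the library that stood apart, 0 without GC replicate 3 and 0 without any 1 of the TC libraries. At F5, 0 of 30 were called in bic (edgeR, against 0.0120% of all genes), 5 had an unadjusted p of 0.05 or less, DESeq2 called 4 (15.4%), and edgeR called 13 of 31 (42.2% of all genes) without the GC library that held theca markers. At F1, where bic GCs were 1 sample assumed to vary like the TC samples, 20 of 33 were called, 10 each way, against 37.8% of all genes. SLC16A10 (-4.57 ± 0.15), SLC5A6 (-4.12 ± 0.18) and SLC2A12 (-4.03 ± 0.33) were lower in TCs, and SLC16A4 (5.89 ± 0.35) was higher.

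The course over the stages was compared between the layers with an interaction term. From syf 6 mm to F5 the change differed for 5 of 33 members, against 9.57% of all genes, and from F5 to F1 for 8 of 32, against 19.3%. The change of SLC16A9 was lower in TCs at the first step (difference of log2 changes -2.78 ± 0.54, adjusted p = 0.0149). SLC2A10 (3.18 ± 0.36, adjusted p = 0.000972), SLC16A5 (4.25 ± 0.91, adjusted p = 0.0114) and SLC37A1 (3.03 ± 0.51, adjusted p = 0.00453) fell in GCs at the second, and their change was higher in TCs. These 4 kept the call under every other fit run. The count at the first step was 10 without GC syf 6 mm replicate 2 and 3 without any single other library of GC syf 6 mm, TC syf 6 mm or TC F5, or without GC F5 replicate 2, and at the second it was 13 without TC F1 replicate 1, 3 without TC F5 replicate 2, and 4 without GC F1 replicate 3 or TC F1 replicate 2.

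Neither treatment gave a called member. Both were compared with the same NC libraries, so their values are not independent. In each of the 12 comparisons of bic or mes with NC at the same layer and stage, 0 members were called (edgeR). The share of all genes called was 1.17% for bic in GCs at F1, 0.0296% for bic and 0.0354% for mes in TCs at syf 6 mm, 0.0122% for mes in TCs at F5 and 0% in the others. At an unadjusted p of 0.05 or less there were 5 of 31, 4 of 31 and 7 of 34 members for bic in GCs at syf 6 mm, F5 and F1. In TCs there were 1 of 30, 1 of 28 and 2 of 28. For mes there were 7 of 31, 9 of 30 and 5 of 28 in GCs and 3 of 29, 7 of 29 and 3 of 26 in TCs. The share of all genes at an unadjusted p of 0.05 or less is not given in this report. Counts at that limit, here and elsewhere, therefore cannot be read as particular to the members. DESeq2 called 1, 1 and 4 members for bic in GCs at the 3 stages, against 0.229%, 2.17% and 20.1% of all genes, and 0 at each stage in TCs, against 0.266%, 0.197% and 3.01%. For mes it called 6, 2 and 3 members in GCs, against 14.2%, 3.99% and 14.2%, and 0, 4 and 0 in TCs, against 0.360%, 2.64% and 1.63%.

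In F1 GCs several members had treated values apart from those of NC, though none was called (edgeR). With 2 NC samples, 3 mes samples and 1 bic sample, the groups of any gene can easily fail to overlap. The share of all genes whose treated and NC groups did not overlap is not given, here or for the other stages. SLC16A1 was at 11.8 and 18.5 FPKM in NC, at 47.2, 48.2 and 52.0 in mes and at 58.2 in the single bic sample. Each treated sample was above both NC samples (mes log2 fold change 1.45 ± 0.30, adjusted p = 0.146, bic 1.75 ± 0.38, adjusted p = 0.102). SLC37A3 was at 36.1 and 54.7 FPKM in NC, 16.5, 23.2 and 16.7 in mes and 10.7 in bic, all below NC (-1.53 ± 0.34, adjusted p = 0.148, and -2.20 ± 0.44, adjusted p = 0.0942). SLC2A10 was at 0.362 and 0.690 FPKM in NC, 5.32, 0.960 and 4.16 in mes and 3.08 in bic (2.43 ± 0.65, adjusted p = 0.162, and 2.38 ± 0.60, adjusted p = 0.122). Counting the 3 bic GC F1 libraries as 3 samples, against the 3 NC libraries as labelled, called 15 of 29 members against 55.9% of all genes.

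At syf 6 mm, mes GCs held more SLC2A9 (115, 132 and 109 FPKM against 48.8, 80.9 and 67.3 in NC) and more SLC2A3 (39.7, 41.7 and 37.9 against 8.82, 25.6 and 15.99). The groups did not overlap, and neither was called (log2 fold change 0.88 ± 0.23, adjusted p = 0.143, and 1.27 ± 0.37, adjusted p = 0.146). SLC5A1, at 0.734, 0.813 and 0.531 FPKM in mes, was below every NC library (-2.03 ± 0.36, adjusted p = 0.143), and it was 0.697, 0.167 and 0.674 FPKM in bic (-2.40 ± 0.62, adjusted p = 0.785). Leaving out NC GC syf 6 mm replicate 2 called 9 of 31 members for mes against 21.4% of all genes. That fit kept NC replicates 1 and 3, the libraries with 2610 and 2140 FPKM of theca markers. With replicates 1 and 3 left out instead, NC held 1 sample. The log2 fold change was then 0.55 for SLC2A9, 0.63 for SLC2A3 and -2.22 for SLC5A1. The part of theca RNA in these differences was not tested. At F5, mes GCs held 14.9, 12.8 and 13.4 FPKM of SLC2A13 against 4.13, 6.97 and 7.55 in NC (1.08 ± 0.24, adjusted p = 0.258) and more SLC2A9 in every library (52.6, 51.7 and 50.1 FPKM, 0.69 ± 0.16, adjusted p = 0.258). In TCs at F5, SLC5A6 was at 21.9, 37.2 and 27.5 FPKM in mes, below every NC library (-2.18 ± 0.56, adjusted p = 0.402). Of those NC libraries, replicates 2 and 3 held the most granulosa-marker RNA. Without NC TC F5 replicate 1, which left only replicates 2 and 3 in NC, 5 of 30 members were called there against 0.984% of all genes.

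The bic GC syf 6 mm replicate 2 carried more RNA of several glucose and lactate carriers than the others of its group. It held 486 FPKM of SLC2A3 against 36.3 and 39.3 in the other bic libraries of its group, 193 FPKM of SLC16A3 against 0.278 and 0.0377, and 66.6 FPKM of SLC2A1 against 8.94 and 3.89. Its SLC2A9, at 0.795 FPKM, lay within the range of NC F1 GCs (64.6 and 71.8 FPKM in the other replicates). The glycolytic enzymes LDHA (lactate dehydrogenase A, 693 FPKM against 31.7 and 29.7) and HK2 (hexokinase 2, 77.8 against 4.01 and 3.34), which were picked after their values were seen, were high in the same library. The bic TC syf 6 mm library numbered replicate 2 also held more SLC16A3 (10.7 FPKM against 0.375 and 0.354), SLC2A1 (73.4 against 29.5 and 29.7), LDHA (155 against 47.9 and 49.8) and HK2 (41.5 against 13.5 and 15.1) than the other libraries of its group. The mean of SLC2A3 in bic GCs at syf 6 mm, 187 ± 259 FPKM, therefore rested on 1 library (log2 fold change against NC 3.83 ± 1.30, adjusted p = 0.785). In the bic GC F5 replicate 2, the library with theca markers, SLC5A6 was at 17.4 FPKM and SLC5A5 at 0.0315, against 385 and 75.8 in replicate 1, and SLC16A4 (6.39 FPKM) and SLC2A6 (5.47) were at levels of the TC libraries.

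Enzymes and partners of the carriers were read from lists of genes of the pathway. Of 20 measured genes of glycolysis and lactate metabolism, 0 were called in NC GCs between syf 6 mm and F5 (edgeR, against 9.11% of all genes; 5 at an unadjusted p of 0.05 or less), and 8 between F5 and F1, 7 of them higher, against 29.6% of all genes. LDHA, which favours lactate formation, rose from 19.9, 22.2 and 25.5 FPKM to 204.5 and 205 in the libraries averaged as 1 sample and 55.6 in replicate 3 (log2 fold change 3.01 ± 0.54, adjusted p = 0.0105), while over the same step its libraries in mes GCs stood at 60.9, 62.2 and 16.5 FPKM and then at 6.00, 13.8 and 4.70. At F1 LDHA was at 4.53, 4.40 and 3.90 FPKM in the libraries of the single bic sample, and neither treatment was called against NC (mes -4.19 ± 0.78, adjusted p = 0.146, bic -5.07 ± 1.13, adjusted p = 0.105). In NC GCs GAPDH rose by 2.46 ± 0.24 (adjusted p = 0.00205), PGAM1 by 1.14 ± 0.20 and PKM by 0.95 ± 0.20. In NC TCs 6 of the 20 rose between syf 6 mm and F5 (7.63% of all genes were called), among them LDHA (0.78 ± 0.11, adjusted p = 0.0344) and PGK1 (0.81 ± 0.15, adjusted p = 0.0391). Between F5 and F1 only GPI was called, lower at F1 (-0.62 ± 0.13, adjusted p = 0.0475), against 6.20% of all genes. At the first TC step the share of all genes was 0.0176% without F5 replicate 3, which was rich in granulosa-marker RNA. With a number in the file names as a block it was 0.0302%. Whether the 6 genes kept their call there is not given. At the second step the share was 0% with that block and 0% without F5 replicate 3 and F1 replicate 1, so GPI was not called in either. Between the layers 6, 8 and 8 of the 20 were called at syf 6 mm, F5 and F1, against 27.0%, 36.0% and 37% of all genes, shares near those of the list. LDHA was higher in TCs at F5 (1.90 ± 0.16, adjusted p = 0.000338), and LDHB, which favours lactate use, was lower in TCs at F1 (-1.99 ± 0.31, adjusted p = 0.0116).

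Of 18 measured partners and regulators of the transporters, 2 were called lower in NC GCs between syf 6 mm and F5 (against 9.11% of all genes in either direction), EMB (embigin), an ancillary protein of monocarboxylate carriers (555, 564 and 406 FPKM to 97.8, 137 and 135, log2 fold change -1.72 ± 0.29, adjusted p = 0.0255), and the insulin receptor INSR (-0.90 ± 0.16, adjusted p = 0.0255). Between F5 and F1, 10 were called, 8 higher, against 29.6% of all genes. EPAS1, a hypoxia-inducible transcription factor, went from 0.0935, 0.271 and 0.341 FPKM to 228, 218 and 110.5 FPKM in the F1 libraries (9.39 ± 0.65, adjusted p = 0.00102), INSR rose by 4.76 ± 0.22 (adjusted p = 0.000709), PDK4, which inhibits pyruvate dehydrogenase, by 1.85 ± 0.35, and BSG (basigin), the main ancillary protein of SLC16A1 and SLC16A3, by 1.12 ± 0.22. In NC TCs MPC1 and MPC2, the subunits of the mitochondrial pyruvate carrier, rose between syf 6 mm and F5 (0.44 ± 0.10 and 0.77 ± 0.15), and TXNIP, which restrains glucose uptake, rose between F5 and F1 (1.19 ± 0.21, adjusted p = 0.0316). Those TC steps called 7.63% and 6.20% of all genes. In the alternatives given above for TCs the shares were 0.0302% or less and 0%, so TXNIP was not called in those. TXNIP was higher in TCs than in GCs by 4.05 ± 0.39 at F1 (adjusted p = 0.00505) and EMB by 3.06 ± 0.43. Across the treatments no gene of the list was called where each group held more than 1 sample, against 0% to 0.0354% of all genes. In F1 GCs INSR stood at 84.4, 79.3 and 76.1 FPKM in the NC libraries and at 3.39, 3.59 and 3.21 in those of the single bic sample. The log2 fold change was -4.74 ± 0.31. That fit set 1 bic sample against 2 NC samples, with the bic sample assumed to vary like NC. In mes INSR stood at 19.2, 24.7 and 9.19 FPKM.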

How the data were processed

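Libraries of GCs and TCs were polyA-selected and sequenced as read pairs. The authors trimmed reads with Cutadapt, aligned them with HISAT2 (2.1.0), discarded duplicate reads (Samtools), and assembled and quantified transcripts with StringTie (1.3.4d) against an annotation of Gallus_gallus-5.0 that the file headers name as an NCBI release, whereas the study's supplement credits the genome to Ensembl; the submitters' processing notes also name DESeq2 (1.26.0). Strand was not given in the sources used here, so overlapping antisense genes cannot be told apart. The deposited tables give, per transcript, counts that the authors derived from StringTie coverage, in which 1 read pair can weigh as much as 4 counts, and FPKM, which the authors normalized to transcript length and library size. Both were summed over the transcripts of a gene. The 5 entries without a gene ID, at most 0.605% of a library's counts, were left out.

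Counts were tested with edgeR 4.0.16 (R 4.3.3, TMM factors, filterByExpr, quasi-likelihood F test, Benjamini-Hochberg over all genes tested), each fit holding the libraries of the groups compared. An SE is the absolute log2 fold change over the square root of F. Libraries under the same library number in the file names were summed when their chi-square per degree of freedom, divided by 4, was at most 2.5; the 5 such pairs gave 1.17 to 1.45 and the 49 other pairs within groups 2.77 to 15.6. The 35 comparisons covered stages, layers, treatments and 2 interactions. Alternatives were DESeq2 1.42.0, RLE size factors, no filter on low counts, a limit on the fold change and all libraries in a single fit. Others were libraries as labelled, a number in the file names as a block, and leaving out single libraries or those richest in marker RNA of the other layer. The tests recovered known changes in counts simulated with a single fixed dispersion and 3 samples a group. The simulation changed no genes of low count and held no libraries with RNA of the other layer. It therefore does not cover those cases here. Members named with values were those reaching a mean of 10 FPKM in a group, up to 10 called members per comparison with the largest change, and SLC2A1, SLC2A3, SLC16A1, SLC16A3, SLC16A7, SLC37A4 and SLC5A6. The members, pathway lists and marker lists were chosen with earlier results of these data known. A few genes that entered the counts of called genes are not reported here. Leukocyte markers (4 of 5 measured) summed to 26.3 to 298 FPKM in NC GCs and 243 to 955 in NC TCs, and endothelial markers (5 of 5) to 0.221 to 51.2 and 50.0 to 190 FPKM.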

Additional observations from a re-analysis of the deposited data

Results flagged for a closer look

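The 12 results here are differences between the layers in how a member changed from one stage to the next in NC, tested as an interaction (TC change minus GC change on the log2 scale, edgeR, Benjamini-Hochberg over all genes). From syf 6 mm to F5, SLC16A9 (-2.78), SLC37A1 (-2.53) and SLC2A1 (-0.78) had the lower change in TCs, and SLC16A12 (3.47) the higher. The SLC16A9 difference held in every other fit. With GC syf 6 mm replicates 1 and 3 left out, the libraries with 2610 and 2140 FPKM of theca markers, the SLC37A1 difference was -2.50 ± 0.63 (adjusted p = 0.0641). In the same fit SLC16A12 kept the call (3.34 ± 0.53, adjusted p = 0.0124), and SLC2A1 did not (-0.93 ± 0.26, adjusted p = 0.0844).

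From F5 to F1, SLC37A3 (-1.26) and SLC2A8 (-0.75) rose in GCs beyond their change in TCs. In mean FPKM, which is not TMM-scaled, SLC2A8 went from 23.1 to 32.1 in GCs and from 24.7 to 27.1 in TCs, a smaller difference than in the test. SLC16A1 (1.62), SLC16A7 (2.44), SLC37A1 (3.03), SLC2A10 (3.18), SLC37A2 (3.78) and SLC16A5 (4.25) had the higher change in TCs. In GCs at F1 several of these were near the lower limit of the data, with SLC37A2 at 0.117 and 0 FPKM, SLC16A7 at 0.0806 and 0.0682 and SLC16A5 at 0.0433 and 0.0601. Without the TC libraries richest in granulosa-marker RNA, SLC16A1 (1.82 ± 0.48, adjusted p = 0.0382), SLC16A7 (2.48 ± 0.64, adjusted p = 0.0361) and SLC37A1 (3.38 ± 0.51, adjusted p = 0.00630) kept the call, and SLC37A2 (3.88 ± 1.25, adjusted p = 0.0720) did not.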

How the results depend on the processing

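Of 247 results for named genes, 103 kept their call and direction under each alternative and none changed sign, and of 2754 alternative values 474 lost a call. In NC, 23 of 69 called pairs of member and comparison, and 4 of 13 interactions, kept the call under every other fit. For stages and layers in NC, the interactions and the treatments, the count of called members moved by more than 1.5 times as follows, and the cause was not tested. With all libraries in a single fit it was 4 for GC F5 against syf 6 mm, 9 for GC F1 against F5, 5 and 4 for the same steps in TCs, 2 for the first interaction, and 2 for bic and 1 for mes in GCs at F1. DESeq2 gave 9 and 6 for the TC steps, 11 for the first interaction, 1, 1 and 4 for bic and 6, 2 and 3 for mes in GCs, and 4 for mes in TCs at F5. Libraries as labelled gave 15 for bic (55.9% of all genes) and 3 for mes (9.58%) in GCs at F1. With theca-marker libraries left out it was 0 for GC F5 against syf 6 mm and 2 for the first interaction. The TC libraries richest in granulosa-marker RNA were NC F5 replicate 3 and NC F1 replicate 1. Without them it was 0 for TC F1 against F5 (0% of all genes) and 3 for the first interaction (5.14%). That alternative was chosen after seeing the data. Requiring an absolute log2 change of 1.5 or more left 0 for TC F1 against F5. DESeq2 called 17.8% of all genes at the first interaction, against 9.57% in the main fit, and its other shares are given above. No share of all genes is given for the single fit or for most of the left-out replicates. Those moves therefore cannot be read as particular to the members. Leaving out each replicate gave 0 to 13 for GC F5 against syf 6 mm, 10 to 15 for GC F1 against F5, 0 to 9 and 0 to 1 for the TC steps, 4 to 14, 8 to 15 and 7 to 19 for the layers, 3 to 10 and 3 to 13 for the interactions, and for mes 0 to 9 in GCs at syf 6 mm, 0 to 3 in GCs at F1 and 0 to 5 in TCs at F5.

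A number in the file names, separate from the library number and not always equal to the replicate number, was tried as a block. The median correlation of deviations was 0.0666 for pairs with the same number and -0.0501 for others over 19 comparisons. Every pair was above 0.1 in 2 of the 16 comparisons with 3 pairs. The same number gave the higher median in each of these comparisons but bic GC F5 against syf 6 mm (-0.0798 against 0.0666). The main fits took no pairing, and these values do not show that the numbers are unrelated to hens. With this block the counts were 0 for TC F1 against F5 (0% of all genes), 3 for the first interaction (7.12%) and 5 for the second (16.4%). In the treated hens the block gave 7 (from 14) for mes GC F1 against F5, where the share of all genes went from 18.2% to 4.56%. It gave 0 (from 2) for bic TC F5 against syf 6 mm, with the share going from 12.8% to 3.03%. For the layers in bic at syf 6 mm it gave 0 (from 3), with the share going from 2.65% to 0%. For comparisons within the treated hens DESeq2 gave 9 (22.4% of all genes) against 3 (2.65%) for the layers in bic at syf 6 mm. For bic TC F5 against syf 6 mm it gave 4 (23.6%) against 2 (12.8%). For mes TC F1 against F5 it gave 7 (23.9%) against 4 (15.1%), among other moves over 1.5 times.

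With 1 to 3 samples a group the calls rest on few libraries, and members below 1 FPKM rest on few reads. Precision from depth covers counting error only.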
